A study of Mus musculus with 89 samples.

Results

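CuO NH3 40 is the group of PBS-challenged mice that received copper oxide nanomaterial with a methylaminated surface at the highest dose of the series, 40 μg per mouse at each administration. Its 3 samples were set against the 7 PBS controls, which were challenged in the same way and received no nanomaterial. Membership was taken from the sample labels alone, and the 10 samples come from a series of 89 samples in 26 groups. Lung tissue RNA was measured on 2-colour Agilent mouse arrays, where a sample was a pool made from 2 RNA samples and carried either Cy3 or Cy5. All mice, controls included, were female BALB/c aged 6 to 8 weeks and had been sensitized with ovalbumin (OVA) in alum on days 1 and 10. Material or vehicle was given by oropharyngeal aspiration on 4 consecutive days, and lungs were collected 24 h after the last exposure. The challenge was PBS in both groups compared here, so the animals were sensitized but met no allergen in the airways. The dose unit follows one label field and the methods, while the treatment text of the labels gives the same figure in mg. Further comparators were CuO NH3 10 with 4 samples, CuO 40 (uncoated) and CuO COOH 40 (carboxylated) with 3 samples each, and CuO NH3 40 + OVA with 3 samples beside its 8 OVA-challenged controls. Doses were matched by mass of material, so the amount of copper differed between materials.

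Copper oxide dissolves slowly in biological fluids, and the copper that enters cells is bound by metallothioneins, small cysteine-rich proteins whose genes are switched on by the metal-sensing transcription factor MTF1. In the lung, injury by inhaled particles is known to set off secretion of chemokines that draw monocytes and neutrophils out of the blood, an acute phase response and, over days, division of epithelial and other cells with deposition of new matrix. Club cells, the secretory cells of the small airways, carry much of the lung's cytochrome P450 activity and are sensitive to many toxicants.

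The 10 samples had a median foreground intensity of 62 to 175.5, which was 1.41 to 3.81 times the local background, and 50.6% to 68.4% of spots were well above background with 0 saturated spots. Exposed sample 1 was labelled with Cy3 and shared its array with PBS control 5, whereas exposed samples 2 and 3 were labelled with Cy5 and shared theirs with samples of other groups. A fit with array terms therefore loses the same information when either exposed sample 1 or control 5 is left out. The lung tissue was checked with a list of 8 genes typical of lung, all well above background in at least 5 of the 10 samples. Their mean level was 13.51 to 13.74 in exposed samples and 13.82 to 14.10 in controls, with 2 members called lower, 0 higher and a median of -0.39. Among them Sftpc, the surfactant protein of alveolar type 2 cells, was well above background in all 10 samples and gave a log2 fold change of -0.13 ± 0.25 (adjusted p = 0.774), which was called at -1.68 with loess normalization. A level is a sample's quantile normalized log2 intensity after dye, slide and array position were removed, and a difference is the log2 fold change of the linear model with dye and array as terms, given with its standard error. Levels of different genes come from different probes and were not compared with each other. Values given in brackets after a gene, and medians of lists, are log2 fold changes against the controls unless another contrast is named. The methods call the pools independent, the labels do not say which animals entered each, and p-values measure the spread between these pools.

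Of the 22851 genes tested, 3022 (13.2%) were called at an adjusted p below 0.05 with an absolute log2 fold change above 0.58. There were 1680 genes (7.35%) with higher and 1342 (5.87%) with lower levels after CuO NH3 40. Separately, 8583 genes (37.6%) had 3 exposed samples that did not overlap the 7 controls, above them in 19.1% and below them in 18.5% of genes tested. The largest rises with non-overlapping samples were in Retnlb, Ccl2, Arg1, Ccl7, Saa3, Timp1, Saa1, Spp1, Orm1 and Orm2, which encode secreted or macrophage proteins of inflammation and repair. The largest falls were in Cfd, Cyp2a5, Myl7, Cyp2a4, Igfbp3, Scgb3a2, Myl4, Colq, Cidec and Car3, which include airway enzyme, cardiac muscle and adipose-type transcripts. Paralogs with near-identical sequence (Saa1 and Saa2, Orm1 and Orm2, Cyp2a4 and Cyp2a5, Hspa1a and Hspa1b, Ear1 and Ear2, the beta globins) may share signal on probes and are uncertain as single genes. Without exposed sample 1, or without control 5, the count was 2370.

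The calls depended more on how replicate numbers were treated than on any 1 sample. With the replicate number as a block beside dye, slide and array position the count was 1335, of which 974 were also among the 3022, and the median standard error was 0.236 against 0.0997 without the block and 0.138 in the fit with arrays. Of 122 genes examined by name, 45 lost their call in this setting and 0 turned in direction. Of the 20 genes with the largest changes, 5 lost it, namely Ccl2 (2.16, adjusted p = 0.114), Ccl7 (2.44, adjusted p = 0.133), Saa3 (1.99, adjusted p = 0.358), Saa1 (2.91, adjusted p = 0.062) and Orm2 (2.67, adjusted p = 0.0623). The other inflammatory and stress genes without a call were Hmox1, Hspa1a, Hspa1b, Ccl12, Ccl8, Cxcl1, Cxcl5, Cxcl2, Cxcl13, Cxcl10, Cxcr2, Ccr7, Il33, Il1b, Tnf, Il1r2, Socs3, S100a8, Cyp1a1, Cyp1b1 and Psmb5. Among epithelial, endothelial, lymphocyte and further genes they were Scgb1a1, Bpifa1, Agr2, Clic5, Hopx, Sftpd, Tek, Plvap, Ms4a1, Cd79b, Prg2, Hlf, Inhbb, Wdr63, Lrrc74b, Nppb, Wfdc18, Gabrp and Gla. By list, the higher members went from 25 to 25 for mitosis, 23 to 18 for replication, 22 to 16 for matrix repair and 17 to 12 for monocytes and recruited macrophages, but from 18 to 6 for acute phase genes, 8 to 1 for monocyte chemokines, 5 to 1 for CXCR2 ligands, 10 to 2 for the cytokine families and for neutrophils, 11 to 4 for Nrf2 targets and for coagulation and 6 to 1 for heat shock genes. The lower members went from 8 to 6 for club cells, 9 to 6 for erythrocytes, 7 to 6 for cardiac muscle and 12 to 7 for alveolar macrophages, but from 14 to 0 for endothelial, 13 to 4 for T cell, 8 to 2 for NK cell, 6 to 0 for B cell and 7 to 0 for type 1 cell markers. Controls 1 to 3 lay on slides 1 to 3, and controls 4 to 7 on slides 4 to 6 like the exposed samples. No control thus shared both number and slide with an exposed sample, so in this setting the contrast rests on links through other samples. The part of this design in the lost calls was not tested. Whether equal numbers mark samples handled together is not stated in the labels, and the fit with arrays is used below.

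**Figure D1:**
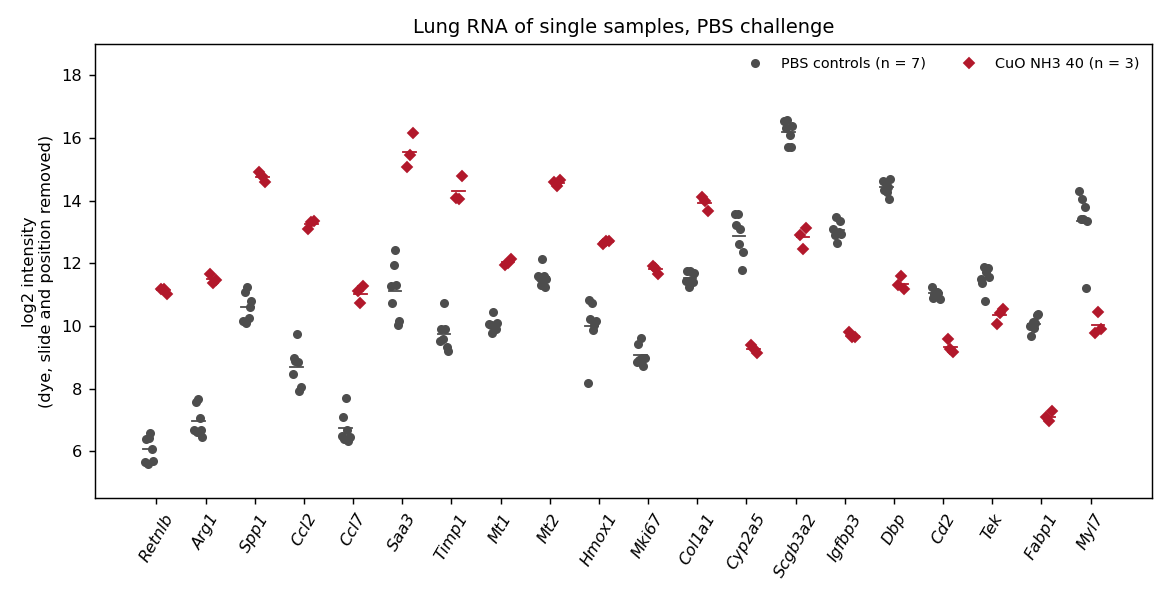
Levels (log2 intensity after dye, slide and array position were removed) of 20 genes in the 3 CuO NH3 40 samples (diamonds) and the 7 PBS controls (circles), with the group mean as a line and genes along the horizontal axis. Retnlb lay at 11.03 to 11.19 in exposed samples and 5.61 to 6.58 in controls, while Cd2 lay at 9.18 to 9.57 and 10.88 to 11.26.

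Among 30 measured genes of copper and metal handling, 6 were higher and 1 was lower, a share of 20% and 3.33% against 7.35% and 5.87% of all genes, and the median log2 fold change of the list was 0.02 beside 0.00 for all genes. Both widely expressed metallothioneins rose. The level of Mt2 was 14.59, 14.48 and 14.65 in exposed samples 1 to 3 and ranged from 11.23 to 12.14 with a median of 11.52 in controls, a log2 fold change of 3.21 ± 0.23, adjusted p = 8.54e-10. For Mt1 the levels were 11.93, 12.03 and 12.14 against 9.78 to 10.45 with a median of 10.04, a log2 fold change of 2.06 ± 0.14, adjusted p = 3.00e-10. In both genes the 3 exposed samples lay within a narrow band above all 7 controls. Mt3, the member known mainly from brain, gave 0.59 ± 0.23, adjusted p = 0.0628, and Mt4 was not well above background in any of the 10 samples. Slc39a14, a zinc and iron importer of the plasma membrane, rose by 2.00 ± 0.18, and Steap4, a reductase of ferric iron and cupric copper, by 1.42 ± 0.24. The remaining members were not called apart from the other 2 higher members and the 1 lower member.

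The 250 bases before the RefSeq start of both metallothionein genes are shown because they carry the letters of the metal response element, the site bound by MTF1 (RefSeq, GRCm38.p6, 5′ to 3′ along the gene, with matches to TGCACNC or TGCGCNC on either strand in capitals).
Mt1, chr8:94178839-94179088, plus strand: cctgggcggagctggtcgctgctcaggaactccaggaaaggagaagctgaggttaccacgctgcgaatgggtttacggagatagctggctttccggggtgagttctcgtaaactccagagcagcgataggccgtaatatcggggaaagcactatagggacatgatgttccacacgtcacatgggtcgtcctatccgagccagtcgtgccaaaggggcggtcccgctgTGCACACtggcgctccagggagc
Mt2, chr8:94172368-94172617, plus strand: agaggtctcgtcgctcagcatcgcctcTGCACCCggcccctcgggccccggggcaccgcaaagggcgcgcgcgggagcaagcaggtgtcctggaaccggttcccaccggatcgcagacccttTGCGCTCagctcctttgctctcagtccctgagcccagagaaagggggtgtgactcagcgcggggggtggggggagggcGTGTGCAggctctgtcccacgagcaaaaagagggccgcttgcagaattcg
The Mt1 window held 1 match, 23 bases before the start, and the Mt2 window held 3, at 223, 128 and 50 bases. At least 1 match was present in 11 of 24 promoters of the metal handling list (45.8%) in 24.3% of promoters of the genes tested and in 21.3% of all 27025 promoters of this length. The share was higher in 4 other lists, at 53.3% of 15 clock promoters and 50% in the DNA replication, fibroblast and lymphoid tissue lists, so these letters are not particular to metal handling genes. Presence of the letters is a description of the window and not evidence of binding.

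Genes of oxidative and protein stress were called in part. Hmox1, which encodes the haem-degrading enzyme haem oxygenase 1, had levels of 12.61, 12.71 and 12.71 in exposed samples and 8.17 to 10.83 with a median of 10.17 in controls, and rose by 2.63 ± 0.23 (adjusted p = 1.42e-08). Of 27 measured Nrf2 antioxidant targets 11 were higher and 3 were lower (median 0.52). The lower members were glutathione transferase and epoxide hydrolase genes, among them Gstm1 (-1.87 ± 0.17) and Ephx1 (-1.54 ± 0.18), which are also strongly expressed in airway epithelium. Hspa1a, the inducible HSP70 chaperone, stood at 13.73, 12.90 and 13.76 against 9.40 to 11.38 with a median of 9.82, a rise of 3.66 ± 0.62, adjusted p = 8.81e-05. Its 3 exposed samples were all above the controls, although 1 control reached 11.38. Across 24 heat shock proteins and co-chaperones 6 were higher, 0 were lower and the median was 0.07, so most members were not called. Serpinh1, the collagen chaperone HSP47, was one of the 6 (1.23 ± 0.21). The endoplasmic reticulum and ATF4 list had 5 higher and 2 lower of 21 (median 0.28), led by Sdf2l1, a chaperone component of the secretory pathway (1.54 ± 0.21), and Atf3, a stress-induced transcription factor (1.14 ± 0.23). The p53 list had 6 higher and 1 lower of 20 (median 0.23), led by Gdf15, a stress cytokine (1.94 ± 0.19), with the cell cycle inhibitor Cdkn1a at 0.93 ± 0.15. Of 9 genes in the aryl hydrocarbon receptor list 1 was higher (Cyp1b1, 1.21 ± 0.25) and 2 were lower. Cyp1a1 was one of these (adjusted p = 0.0288), but it was not well above background in any exposed sample and no fold is given. The list had 0 lower members without exposed sample 1, so that Cyp1a1 was not called, and Hspa1b stood at 2.14 without a call instead of 2.59 ± 0.73. Normexp, loess, a fit on the compared groups alone and omission of control 3 or exposed sample 3 also ended the call of Cyp1a1.

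Chemokines that act on monocytes and neutrophils showed the highest shares of called genes among the signalling lists. Of 10 CCR2 ligands and monocyte chemokines 8 were higher and 1 was lower (median log2 fold change 2.17). Ccl2, the main ligand that draws CCR2-bearing monocytes, had levels of 13.11, 13.31 and 13.35 in exposed samples and 7.94 to 9.75 with a median of 8.84 in controls. Its rise of 4.59 ± 0.47 (adjusted p = 1.23e-07) was matched by Ccl7, a second CCR2 ligand, at 4.57 ± 0.48, adjusted p = 1.51e-07. Ccl7 levels were 11.11, 10.73 and 11.26 against 6.34 to 7.69 with a median of 6.50. Both genes are among the largest rises picked for non-overlapping samples, so their separation is part of that choice. Ccl12 (3.31 ± 0.35) and Ccl8 (2.62 ± 0.56), which act on monocytes too, also rose. Among 8 CXCR2 ligands and neutrophil growth factors 5 were higher and 0 lower (median 1.22). Cxcl1, a neutrophil chemoattractant, stood at 10.36, 9.89 and 10.95 against 7.56 to 8.43 with a median of 7.64, a rise of 2.93 ± 0.38, adjusted p = 3.84e-06. Cxcl5, a CXCR2 ligand made by epithelium, rose by 3.36 ± 0.49 and Cxcl2, made largely by myeloid cells, by 1.07 ± 0.25. Without exposed sample 1 the CXCR2 list had 3 higher members, and Cxcl2 (1.16) and Ccl8 (2.48) were no longer called.

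The Cxcl1 promoter is shown because its window holds letters of the NF-kB site, the element through which inflammatory signals act on this gene (RefSeq, GRCm38.p6, matches to GGGA followed by 4 bases of any kind and CC, on either strand, in capitals, with 2 of them overlapping).
Cxcl1, chr5:90890995-90891244, plus strand: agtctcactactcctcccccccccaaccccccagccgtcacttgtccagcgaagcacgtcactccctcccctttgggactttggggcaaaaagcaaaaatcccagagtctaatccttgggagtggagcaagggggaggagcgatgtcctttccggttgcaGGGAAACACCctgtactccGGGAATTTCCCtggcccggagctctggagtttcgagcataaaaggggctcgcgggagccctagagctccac
The 3 matches lay 90, 71 and 70 bases before the start. Such a match was found in 3 of 6 promoters of the CXCR2 list, in 1 of 7 of the CCR2 list in 4 of 6 (66.7%) of the goblet cell list and in 17.3% of all promoters.

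Of 17 measured lymphoid, eosinophil and interferon-induced chemokines 6 were higher and 1 lower (median 0.42). Cxcl13, which guides B cells (3.04 ± 0.41), and Cxcl10, an interferon-inducible ligand of CXCR3 (2.73 ± 0.67), rose, whereas Ccl5, a product of T and NK cells, fell (-2.01 ± 0.35). Ccl11, the eosinophil chemoattractant eotaxin, was not called (0.43 ± 0.25, adjusted p = 0.233). Its fold change was below 0 in 3 alternative settings, which had neither slide nor array as a fixed term. It reached -1.08 with the replicate number and dye as terms. Receptors split as well, with 4 higher and 4 lower of 20. Cxcr2 (1.90 ± 0.38), the receptor of neutrophils for the CXC ligands above, rose, while Ccr7 (-1.19 ± 0.22), the homing receptor of naive lymphocytes and mature dendritic cells, fell. Without exposed sample 1 the receptor counts were 2 higher and 1 lower, and Cxcl10 (2.26) and Ccr7 (-0.77) were not called.

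The IL-1, IL-6 and TNF families had 10 higher and 2 lower members of 26 measured (median 0.14). Il6, the cytokine that drives the acute phase response, rose by 2.42 ± 0.27, adjusted p = 4.60e-07, and the alarmin Il33 by 1.46 ± 0.20. Il1b (1.43 ± 0.35) and Tnf (0.73 ± 0.26, adjusted p = 0.0383) were called with smaller changes. Of 8 Th2 cytokine genes only Il33 was higher, 1 was lower, and Il13 was well above background in 1 of the 10 samples. The decoy receptor Il1r2 (2.68 ± 0.32) and the feedback inhibitor Socs3 (1.13 ± 0.17) were among 10 higher members of 27 cytokine receptor and feedback genes, of which 1 was lower (median 0.36). Leaving out exposed sample 1 reduced the higher members of the cytokine families to 5 and of the receptor list to 6, and ended the calls of Il1b (1.61) and Tnf (0.77). The call of Tnf also ended with loess normalization, with slide and position terms, with controls of the same slides, and without control 3 or any other exposed sample.

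Acute phase genes were called in large part, with 18 higher and 1 lower of 27 measured (median 1.16). Saa3, the serum amyloid A made in lung and macrophages, had levels of 15.09, 15.45 and 16.17 against 10.02 to 12.41 with a median of 11.27, a rise of 4.52 ± 0.60, adjusted p = 4.81e-06. Saa1 followed with 12.34, 12.52 and 13.36 against 8.18 to 9.41 with a median of 8.51 and a rise of 4.45 ± 0.46, adjusted p = 1.51e-07. Sample 3 was the highest of the exposed in both genes. Their full separation from controls is part of the rule that picked them. Orm1 (4.32 ± 0.50) and Orm2 (4.02 ± 0.48), which encode plasma acid glycoproteins, rose along with Cd14 (2.71 ± 0.22), the lipopolysaccharide co-receptor. Kng1, the kininogen precursor of bradykinin, rose by 2.72 ± 0.23, adjusted p = 5.38e-09. It was well above background in 3 exposed samples but only 2 controls, so the size is uncertain. Over the settings it ran from 2.19 to 4.34. In the coagulation and fibrinolysis list 11 genes were higher and 1 lower of 21 (median 0.67), and Thbs1, which encodes the platelet and matrix protein thrombospondin 1, led it (2.35 ± 0.21). Without exposed sample 1 the coagulation list had 7 higher members.

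Markers of recruited myeloid cells were higher and those of resident alveolar macrophages lower. Of 21 markers of monocytes and recruited macrophages 17 were higher and 0 lower (median 1.62), and their mean level was 11.42 to 11.56 in exposed samples and 9.65 to 10.10 in controls. Arg1, the arginase of alternatively activated macrophages, stood at 11.65, 11.37 and 11.47 against 6.46 to 7.68 with a median of 6.69 (4.58 ± 0.44, adjusted p = 5.06e-08). Spp1, which encodes osteopontin, stood at 14.93, 14.80 and 14.59 against 10.11 to 11.24 with a median of 10.60 (4.44 ± 0.25, adjusted p = 5.72e-11). In both genes the exposed samples lay close together. Their place above every control is part of the rule that picked these genes. Msr1, a scavenger receptor of macrophages, rose by 2.43 ± 0.20. Retnlb, a resistin-like protein secreted by epithelium, had the largest rise among genes with non-overlapping samples. Its levels were 11.19, 11.19 and 11.03 against 5.61 to 6.58 with a median of 6.08 (4.74 ± 0.36, adjusted p = 1.43e-09). It was well above background in 3 exposed samples but only 5 of the 7 controls, so the size is uncertain. Alveolar macrophage markers numbered 12 lower and 2 higher of 20 (median -0.92), at a mean level of 9.68 to 9.79 against 10.67 to 10.86. Among them were Fabp1, a lipid carrier (-3.06 ± 0.44), the eosinophil-associated ribonucleases Ear2 (-2.94 ± 0.31) and Ear1 (-2.64 ± 0.29), and Cidec, a lipid droplet protein also abundant in fat (-3.22 ± 0.36). In lung tissue, fewer cells of a type and less RNA per cell cannot be told apart.

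Of 20 neutrophil markers 10 were higher and 3 lower (median 1.15), and their mean level was 10.13 to 10.45 against 9.20 to 9.42. There were 8 higher and 1 lower without exposed sample 1. Mmp8, the neutrophil collagenase, rose by 3.08 ± 0.30, adjusted p = 4.59e-08, and the alarmin S100a8 by 1.79 ± 0.49. Its partner S100a9 gave 1.10 ± 0.49, adjusted p = 0.106 and was not called. Other genes of neutrophils went down, and the levels of the receptors Csf3r, Fpr1 and Fpr2 lay below every control. Csf3r stood at 14.69 to 15.16 against 15.37 to 15.69, Fpr1 at 8.28 to 8.76 against 9.53 to 9.79 and Fpr2 at 9.515 to 9.76 against 10.60 to 11.02. S100a8 was not called without exposed sample 1 (2.16), and S100a9 was called under several alternative settings. Eosinophil markers showed 1 higher and 1 lower of 8 (median -0.07), and Epx, the eosinophil peroxidase, was not well above background in any of the 10 samples. Prg2, which encodes the granule major basic protein, was called at 0.75 ± 0.24 (adjusted p = 0.0214) but not under several other settings, omission of exposed sample 1 included, at 0.61.

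Genes of cell division formed the most uniform group. All 25 mitosis genes were higher (median 2.40), and 23 of 24 DNA replication genes were higher with 0 lower (median 1.45). Mki67, the Ki-67 proliferation antigen, had levels of 11.93, 11.85 and 11.66 in exposed samples and 8.73 to 9.62 with a median of 8.97 in controls, a rise of 2.82 ± 0.16, adjusted p = 5.72e-11. The exposed samples were all above the highest control. Cyclin A2, encoded by Ccna2, rose by 3.13 ± 0.21, survivin, encoded by Birc5, by 2.87 ± 0.19 and the mitotic kinase Aurka by 2.87 ± 0.17. Among replication genes Rrm2, the regulatory subunit of ribonucleotide reductase, rose by 3.11 ± 0.19, adjusted p = 7.65e-11 and thymidine kinase 1, encoded by Tk1, by 2.19 ± 0.18. Both counts were the same with any 1 exposed sample left out.

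Promoters of 2 mitosis genes are shown because the CCAAT box, bound by the factor NF-Y, recurs in this list (RefSeq, GRCm38.p6, CCAAT on either strand in capitals).
Ccnb1, chr13:100786487-100786736, minus strand: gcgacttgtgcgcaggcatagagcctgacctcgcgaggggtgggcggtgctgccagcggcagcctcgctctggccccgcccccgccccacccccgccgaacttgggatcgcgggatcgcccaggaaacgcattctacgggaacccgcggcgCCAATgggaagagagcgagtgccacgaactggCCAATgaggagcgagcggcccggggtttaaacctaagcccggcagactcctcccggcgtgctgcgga
Aurka, chr2:172370571-172370820, minus strand: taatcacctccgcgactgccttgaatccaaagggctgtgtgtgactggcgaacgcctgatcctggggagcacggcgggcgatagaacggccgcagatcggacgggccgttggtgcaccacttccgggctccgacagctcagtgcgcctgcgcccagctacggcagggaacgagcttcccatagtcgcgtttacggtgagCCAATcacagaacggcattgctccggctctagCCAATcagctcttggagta
Both windows held 2 matches, at 99 and 67 bases before the start for Ccnb1, which encodes cyclin B1, and at 51 and 19 bases for Aurka. At least 2 matches were present in 12 of 20 mitosis promoters (60%) and in 10.5% of all promoters, and at least 1 in 17 of 20 (85%) and 34.5%. In the cholesterol list at least 2 were present in 50% and at least 1 in 91.7% of 12 promoters.

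**Figure D2:**
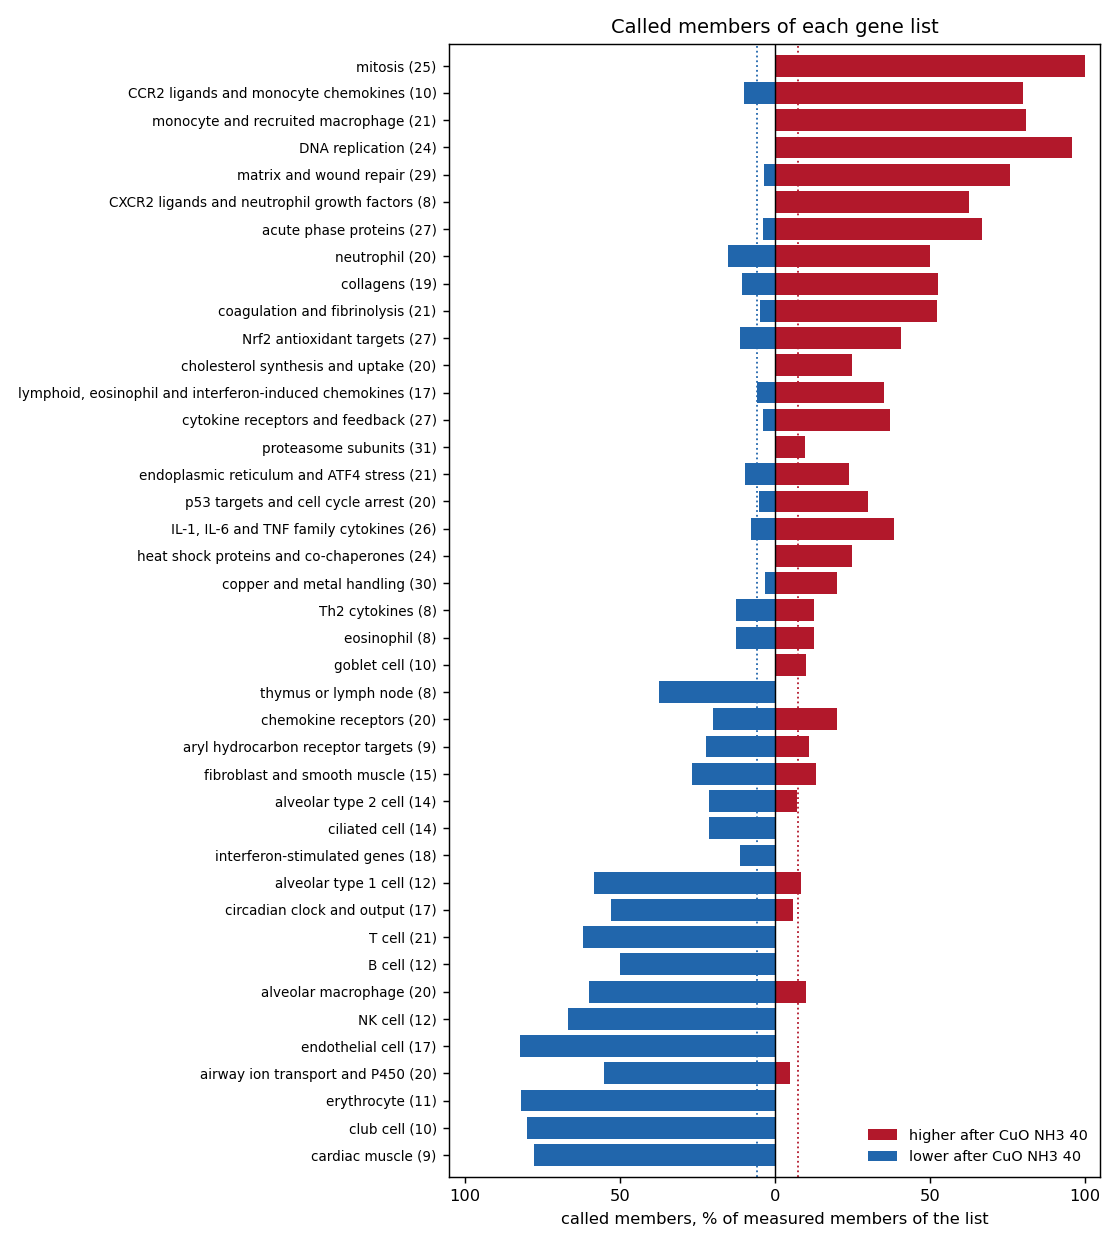
Share of measured members called higher (to the right) and lower (to the left) after CuO NH3 40 in each gene list, in percent, with dotted lines at the shares of all genes, 7.35% higher and 5.87% lower. Mitosis (25 of 25 higher) and DNA replication (23 of 24) have the highest shares called higher, and club cell (8 of 10) and endothelial genes (14 of 17) are among those with the highest shares called lower.

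Matrix and wound repair genes were higher in 22 and lower in 1 of 29 (median 1.30). Timp1, the inhibitor of matrix metalloproteinases, had levels of 14.09, 14.04 and 14.78 against 9.19 to 10.75 with a median of 9.57 and rose by 4.48 ± 0.44, adjusted p = 5.30e-08. Adamts4, an aggrecan-cleaving protease, rose by 3.08 ± 0.29. Ereg, an epidermal growth factor receptor ligand, was well above background in all 3 exposed samples and no control, which gives a level at least 4.23-fold higher (adjusted p = 2.90e-07). Of 19 collagen genes 10 were higher and 2 lower (median 0.74). Col1a1, the main chain of fibrillar collagen, stood at 14.12, 13.99 and 13.67 against 11.23 to 11.75 with a median of 11.47 and rose by 2.57 ± 0.25, adjusted p = 5.84e-08, and Col3a1, its partner in soft tissue, rose by 1.78 ± 0.19. No Col1a1 value of an exposed sample reached down to the controls. Markers of fibroblasts and smooth muscle gave 2 higher and 4 lower of 15 (median -0.26), and 1 lower without exposed sample 1.

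Airway epithelial genes were lower. Of 10 club cell markers 8 were lower and 0 higher (median -1.92), with a mean level of 11.20 to 11.36 in exposed samples and 12.67 to 13.34 in controls. Scgb3a2, a secretoglobin of club cells, had levels of 12.90, 12.46 and 13.13 against 15.71 to 16.57 with a median of 16.33 and fell by 3.42 ± 0.51 on the log2 scale (adjusted p = 1.89e-05). The best known member, Scgb1a1, changed less, at -1.29 ± 0.31, and Bpifa1, an antimicrobial protein of the upper airways, gave -2.87 ± 0.82. Over the settings other than the replicate block beside slide and position, Scgb1a1 ran from -2.61 to -0.72. Of 20 genes of airway ion transport and P450 metabolism 11 were lower and 1 was higher (median -1.07). Cyp2a5, a P450 of airway epithelium and liver, stood at 9.39, 9.26 and 9.14 against 11.78 to 13.58 with a median of 13.08, a log2 fold change of -4.09 ± 0.46, adjusted p = 5.53e-07. Cyp2f2, the P450 that activates naphthalene in club cells, gave -2.83 ± 0.31 and Cyp2a4 -3.70 ± 0.39. The 1 higher member was Slc26a4, the anion exchanger pendrin (2.89 ± 0.39, adjusted p = 6.86e-06). Goblet cell genes, which mark mucus production, had 1 higher and 0 lower of 10 (median -0.08). That 1 was Agr2, a disulfide isomerase of mucin folding (1.38 ± 0.51, adjusted p = 0.0489). Its call ended when any 1 control was left out and in some other settings, 12 of 20 settings in all. Scgb1a1 (-0.83), Bpifa1 (-3.05) and Agr2 (1.78) were not called without exposed sample 1.

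Ciliated cell markers gave 3 lower and 0 higher of 14 (median -0.40), with a mean level of 8.75 to 9.08 against 9.40 to 9.66. Tppp3, a microtubule-binding protein of cilia, fell by 1.97 ± 0.21 on the log2 scale and Dnah5, a dynein heavy chain of the outer arm, by 1.30 ± 0.24. Without exposed sample 1 the list had 1 lower member, and Dnah5 stood at -1.06 without a call. The alveolar epithelium differed by cell type. Type 1 cell markers were lower in 7 and higher in 1 of 12 (median -0.73), among them Clic5, a chloride channel protein (-1.51 ± 0.20), and Hopx, a homeodomain cofactor (-0.94 ± 0.15). Type 2 cell markers were lower in 3 and higher in 1 of 14 (median -0.32), and their mean level of 13.68 to 13.81 lay inside the control range of 13.62 to 14.01. Sftpd, the collectin surfactant protein D, rose by 1.21 ± 0.15, while Lyz1, a lysozyme of type 2 cells, gave -1.43 ± 0.30. With loess normalization Sftpd was not called at 0.28.

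Endothelial genes were lower. Of 17 endothelial markers 14 were lower and 0 higher (median -1.06), at a mean level of 11.31 to 11.59 against 12.03 to 12.61. Tek, the angiopoietin receptor TIE2, gave -1.50 ± 0.20, adjusted p = 4.14e-06, and Plvap, the protein of fenestral diaphragms, gave -1.45 ± 0.22. Outside the lists, Igfbp3, which binds insulin-like growth factors, had levels of 9.80, 9.64 and 9.65 against 12.66 to 13.49 with a median of 13.01 and fell by 3.47 ± 0.21 on the log2 scale (adjusted p = 8.96e-11). Colq, the collagen tail of acetylcholinesterase, stood at 8.36, 8.40 and 8.21 against 11.26 to 11.99 with a median of 11.45 (-3.23 ± 0.26, adjusted p = 3.02e-09). Both genes were picked among those with non-overlapping samples, so their full separation is part of that choice. The exposed samples lay within a narrow range.

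Lymphocyte markers were lower to an extent that depended on 1 array. Of 21 T cell markers 13 were lower and 0 higher (median -0.86), and their mean level was 7.48 to 7.67 against 8.12 to 8.56. Cd2, an adhesion receptor of T and NK cells, stood at 9.57, 9.26 and 9.18 against 10.88 to 11.26 with a median of 11.06 (-1.62 ± 0.14, adjusted p = 1.32e-08). Ms4a4b, a membrane protein of T cells, gave -1.82 ± 0.25, whereas Cd3e, a chain of the T cell receptor complex, was not called (-0.40 ± 0.18, adjusted p = 0.108). NK cell markers were lower in 8 and higher in 0 of 12 (median -1.04), led by the granule protease Gzma (-2.58 ± 0.28, adjusted p = 3.18e-07). B cell markers were lower in 6 and higher in 0 of 12 (median -0.87), and Cd79a, a chain of the B cell receptor, gave -0.66 ± 0.24, adjusted p = 0.051. Without exposed sample 1 the T cell count was 5, the NK count 7 and the B cell count 0, with Ms4a1 at -1.02 and Cd79b at -0.67 instead of -1.57 and -1.40. Markers of thymus or lymph node had 3 lower of 8, and 0 without that sample.

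Transcripts of blood, cardiac muscle and fat were lower too. Of 11 measured erythrocyte genes 9 were lower and 0 higher (median -1.84), with a mean level of 9.75 to 9.90 against 11.18 to 11.72. Hbb-bt, a beta globin, gave -2.87 ± 0.37, adjusted p = 3.16e-06 and Alas2, the erythroid enzyme that starts haem synthesis, -2.56 ± 0.35. Cardiac muscle genes were lower in 7 and higher in 0 of 9 (median -2.74), but their mean level varied widely in controls, from 9.06 to 11.25, against 8.39 to 8.66 in exposed samples. The atrial myosin light chain Myl7 had levels of 9.79, 10.46 and 9.89 against 11.20 to 14.31 with a median of 13.43, and Myl4, Myh6 and Sln, also of cardiac muscle, gave -3.37 ± 0.70, -2.86 ± 0.60 and -3.07 ± 0.86. None of the 7 cardiac calls was made without exposed sample 1, where Myl7 stood at -3.69 instead of -3.82, Myl4 at -3.38, Myh6 at -2.87 and Sln at -2.92. Cfd, an adipocyte complement protease, stood at 6.69, 6.01 and 6.35 against 8.72 to 11.13 with a median of 10.47 (-4.34 ± 0.79, adjusted p = 1.92e-04). Car3, a carbonic anhydrase of fat and muscle, gave -3.19 ± 0.60. It was well above background in all 7 controls but only 1 exposed sample, so the size is uncertain. The part that cardiac muscle, fat or blood in the samples had in the other falls was not tested.

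**Figure D3:**
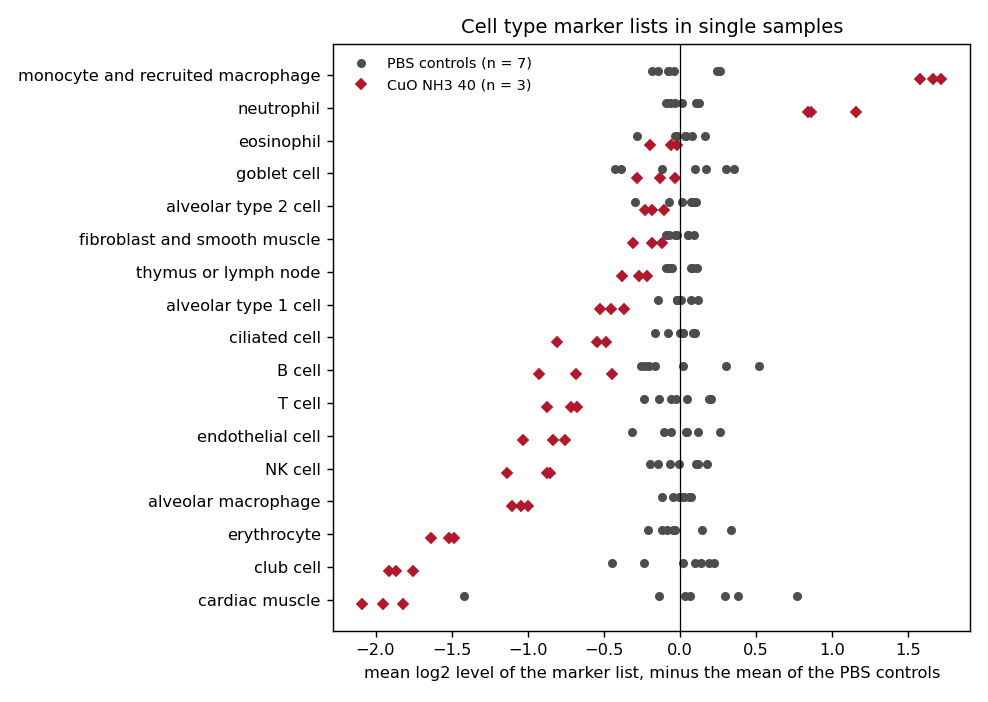
Mean level of each cell type marker list in every sample minus the mean of the 7 PBS controls (log2 units), with CuO NH3 40 and PBS samples as separate points. Monocyte and recruited macrophage and neutrophil lists lie above 0 in all 3 exposed samples, type 2 and eosinophil lists overlap the controls, and the cardiac list is the most spread among controls.

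Genes of the circadian clock's output were lower. Of 17 measured clock genes 9 were lower and 1 was higher (median -0.84). Dbp, the output transcription factor driven by CLOCK and BMAL1, had levels of 11.29, 11.60 and 11.18 against 14.05 to 14.68 with a median of 14.44 and fell by 3.14 ± 0.31 on the log2 scale (adjusted p = 6.89e-08). Its relative Hlf gave -1.84 ± 0.40 and the repressor Nr1d1, which encodes REV-ERB alpha, -2.37 ± 0.34, while Nfil3, which represses DBP targets, rose by 1.87 ± 0.17. Exposed and control Dbp levels did not overlap. Hlf was not called without exposed sample 1 (-1.76).

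Dose was examined by setting CuO NH3 40 directly against CuO NH3 10, in the same challenge. Of the 22851 genes 703 (3.08%) differed, 408 higher (1.79%) and 295 lower (1.29%) at the high dose. Against the controls 214 genes (0.937%) were called at 2.5 μg, 770 (3.37%) at 10 μg and, as above, 3022 at 40 μg, each contrast using the same 7 controls. The lowest dose was not tested against the other doses. Ccl2 gave log2 fold changes of 3.37, 3.96 and 4.59 at 2.5, 10 and 40 μg, with a difference of 0.63 ± 0.54 between the upper 2 doses (adjusted p = 0.604). Saa3 gave 4.86, 4.53 and 4.52, Cxcl1 2.87, 3.16 and 2.93, and Cxcl5 3.34, 4.72 and 3.36, none of them called between 10 and 40 μg. Retnlb, by contrast, gave 0.63, 1.46 and 4.74, a difference of 3.29 ± 0.41 (adjusted p = 1.51e-04). Arg1 (3.16 ± 0.51), Kng1 (1.96 ± 0.26) and Gdf15 (1.83 ± 0.22) also rose between these doses, and so did Angptl4, a lipoprotein lipase inhibitor (1.86 ± 0.35). Ereg differed by 1.92 ± 0.34 (adjusted p = 0.00324).

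Mt1 gave 0.72, 1.14 and 2.06 over the 3 doses with a called difference of 0.91 ± 0.16 (adjusted p = 0.0028), and Mt2 gave 1.45, 2.35 and 3.21 with a difference of 0.86 ± 0.27 that was not called (adjusted p = 0.0672). Hmox1 rose by 1.39 ± 0.27 between 10 and 40 μg (adjusted p = 0.00555). Mki67 gave 1.55, 2.07 and 2.82, and 20 of 25 mitosis genes were called higher at 40 than at 10 μg, with 9 of 24 replication genes and 12 of 29 matrix genes. Col1a1 differed by 1.29 ± 0.29 and Spp1 by 1.06 ± 0.29. Among falls, Scgb3a2 gave -0.26, -0.46 and -3.42, a difference of -2.96 ± 0.58 (adjusted p = 0.00607), and Colq differed by -2.27 ± 0.29, Car3 by -2.64 ± 0.68 and Cfd by -3.92 ± 0.90. Car3 was well above background in only 1 sample at 40 μg, so the size of its difference is uncertain. Cyp2a5 was already at -3.50 at 10 μg and its difference of -0.59 ± 0.53 was not called (adjusted p = 0.625). Of the lymphocyte lists 11 of 21 T cell and 7 of 12 NK cell genes were lower at 40 than at 10 μg, as were 6 of 10 club cell, 6 of 20 airway transport and P450, 5 of 14 ciliated and 5 of 20 alveolar macrophage genes. Cd2 gave -0.26, -0.39 and -1.62, with a difference of -1.23 ± 0.16 (adjusted p = 2.31e-04). The number of called differences rested on single samples, and was 102 without exposed sample 2, 158 without exposed sample 1, 296 and 337 without CuO NH3 10 samples 1 and 4, and 1126 with slide and position terms in place of arrays.

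**Figure D4:**
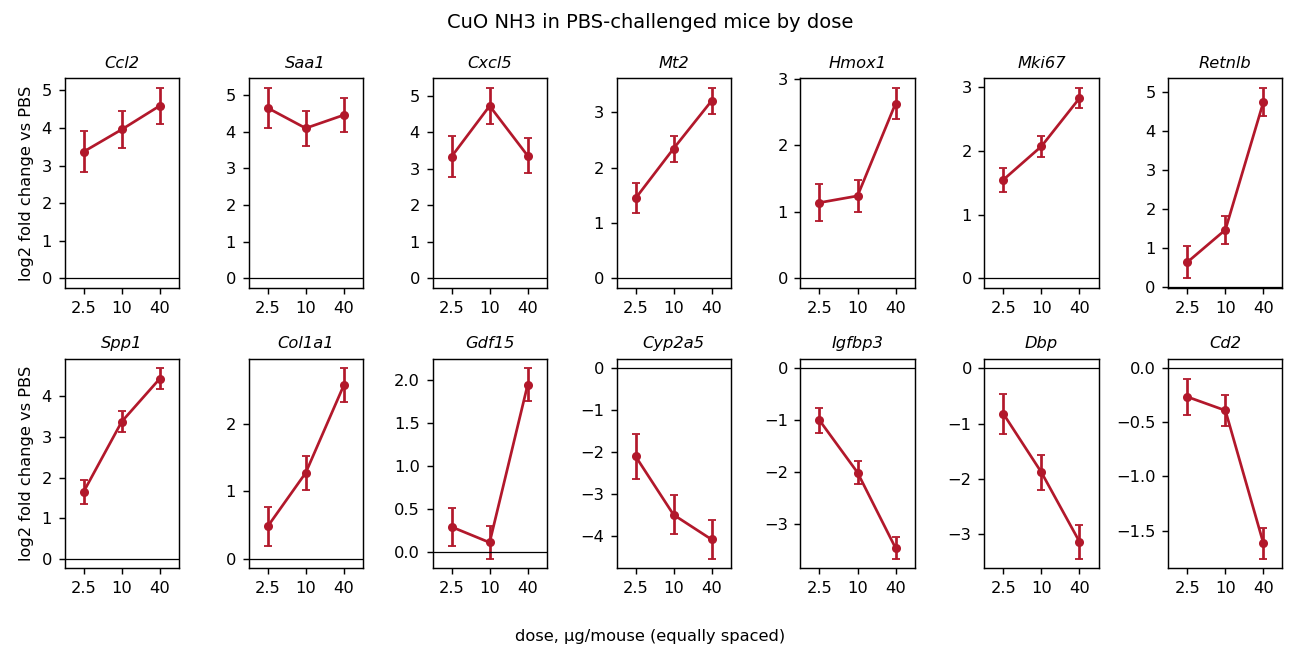
Log2 fold change against the 7 PBS controls with its standard error for 14 genes at 2.5, 10 and 40 μg of CuO NH3 per mouse, one panel per gene with its own vertical axis and the doses equally spaced. Saa1 lies between 4.09 and 4.65 and Ccl2 goes from 3.37 through 3.96 to 4.59, whereas Retnlb, Gdf15 and Cd2 are farther from 0 at 40 than at 10 μg.

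The coating was examined in 2 pairs of materials at the same mass dose and time, CuO NH3 40 against uncoated CuO 40 and against CuO COOH 40. CuO NH3 lay on slides 4 to 6 and the others on slides 1 to 3, so these pairs were fitted with dye, slide and array position and were linked through the control samples on all 6 slides. Against CuO 40, 28 genes (0.123%) differed, 8 higher (0.035%) and 20 lower (0.0875%). Against CuO COOH 40 the count was 13 (0.0569%), with 8 higher (0.035%) and 5 lower (0.0219%). By the median over genes, a 95% interval reached 0.27 log2 units to each side for the first pair and 0.28 for the second. In this fit metallothionein and proliferation genes had differences near 0 from CuO 40, with Mt1 at 0.04 (95% interval -0.44 to 0.53) and Mki67 at 0.01 (95% interval -0.43 to 0.45). Intervals were wider for inflammatory genes, with Ccl2 at 0.68 (95% interval -0.42 to 1.78), Saa3 at -0.07 (95% interval -1.48 to 1.35) and Hmox1 at -0.32 (95% interval -1.20 to 0.56). These intervals leave room for differences of either sign and do not show that the materials acted alike. The differences also depended on the fit. With arrays as terms, effects against PBS controls after CuO NH3 40 and CuO 40 were 2.06 and 2.61 for Mt1 and 2.82 and 2.92 for Mki67. For Ccl2 they were 4.59 and 5.08, a difference of the other sign, for Saa3 4.52 and 6.16 and for Hmox1 2.63 and 3.96. Arg1 at 1.50 (95% interval 0.28 to 2.73) and Scgb3a2 at -1.71 (95% interval -2.70 to -0.72) had intervals that left out 0 but were not called after adjustment. From CuO COOH 40, Mt1 differed by 0.41 (95% interval -0.10 to 0.91), Ccl2 by 0.92 (95% interval -0.22 to 2.06) and Mki67 by 0.03 (95% interval -0.42 to 0.49), without a call. With arrays as terms, effects against PBS controls after CuO COOH 40 were 1.88 for Mt1, 4.66 for Ccl2 and 2.95 for Mki67. Hmox1 depended more on the fit. Its difference from CuO COOH 40 was -0.15 (95% interval -1.06 to 0.77) with slide and position terms. With arrays as terms its effect was 4.91 after CuO COOH 40 beside 2.63 after CuO NH3 40.

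Higher after CuO NH3 40 than after CuO 40 were Angptl4 (1.40 ± 0.32, adjusted p = 0.0405), Acot1, a cytosolic acyl-CoA thioesterase (1.14 ± 0.23), Ly6g6c (1.13 ± 0.19) and Inhbb, an activin subunit (1.05 ± 0.24). Lower were Wdr63, a dynein intermediate chain (-1.02 ± 0.20, adjusted p = 0.0198), Ccdc153 (-1.02 ± 0.20), Nme9, a thioredoxin-domain protein of axonemes (-0.91 ± 0.21) and Lrrc74b (-0.88 ± 0.18). Of the 14 ciliated cell markers 0 were called between these materials, and their median difference was -0.68 beside 0.00 over all genes. The goblet cell (-0.74), cardiac muscle (-0.71) and club cell (-0.66) lists had medians of like size, so this shift was not particular to ciliated cells. Against CuO COOH 40 the higher genes were led by Acot1 (1.40 ± 0.24, adjusted p = 0.00278), the imprinted transcript H19 (1.07 ± 0.20), the natriuretic peptide gene Nppb (0.94 ± 0.17) and Wfdc18 (0.87 ± 0.17). Anxa10, an annexin, was well above background in all 3 CuO COOH 40 samples and in no exposed sample, a level at least 1.81-fold lower after CuO NH3 40 (adjusted p = 2.47e-08). The other lower genes were Gabrp (-0.80 ± 0.17), the lysosomal galactosidase Gla (-0.63 ± 0.14), the RNA polymerase subunit Polr2l (-0.58 ± 0.09) and a gene model without a name. The first count was 1 without CuO 40 sample 1 or without exposed sample 2, 127 without CuO 40 sample 3, 77 without exposed sample 1 and 16 without CuO 40 sample 2, and the second was 6 without CuO COOH 40 sample 2 and 7 without exposed sample 3. With dye and array as terms the counts were 0 and 5, and with the compared groups alone, where material and slide cannot be told apart, 496 and 1454.

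The challenge was examined by asking whether the effect of CuO NH3 40 differed between PBS-challenged mice and mice challenged with OVA, which develop allergic airway inflammation. The effect in each challenge was taken against its own controls, 7 PBS and 8 OVA samples, and 907 genes (3.97%) were called in OVA-challenged mice. The effects differed for 364 genes (1.59%), 319 of them (1.4% of all) with a lower and 45 (0.197%) with a higher effect under OVA. Of these 364 genes 294 were called higher by CuO NH3 40 in PBS-challenged mice, 36 lower and 34 not called. The largest difference was in Cxcl13, whose effect was lower by 4.09 ± 0.57 log2 units under OVA (adjusted p = 1.40e-04). It was followed by Fxyd4, a regulator of the sodium pump (-3.63 ± 0.62), Slc26a4 (-3.62 ± 0.55) and Timp1 (-3.58 ± 0.61). Agr2 (-3.30 ± 0.71), Ccl8 (-3.18 ± 0.78), Cxcl5 (-3.16 ± 0.68) and Arg1 (-3.01 ± 0.62) followed. Several of these genes were already higher in OVA than in PBS controls, by 5.91 for Ccl8, 4.36 for Slc26a4 and 4.26 for Arg1.

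By list, 24 of 25 mitosis genes had a lower effect under OVA, with a median effect of 2.40 under PBS and 0.66 under OVA, and OVA controls stood 1.54 above PBS controls. Mki67 differed by -2.32 ± 0.22 (adjusted p = 8.19e-06). Of the replication list 14 differed, and of the monocyte and recruited macrophage list 10, with median effects of 1.62 and 0.35. Mt1 (-0.98 ± 0.20) and Mt2 (-1.49 ± 0.32) had lower effects as well, whereas Hmox1 differed by -0.18 ± 0.33 and was not called (adjusted p = 0.886). Falls that were smaller under OVA included Cyp2a5 (2.51 ± 0.65), Cyp2a4 (2.17 ± 0.54) and Slc16a11, a monocarboxylate transporter family member (1.32 ± 0.31). Cd2 (0.31 ± 0.20, adjusted p = 0.571) and Ccl2 (-1.67 ± 0.66, adjusted p = 0.268) were not called. Median effects were near each other in the T cell list, -0.86 under PBS and -0.91 under OVA, and in the neutrophil list, 1.15 and 1.03. The goblet cell list had medians of -0.08 and -1.93, and its genes stood 2.43 higher in OVA than in PBS controls by the median. The count of 364 was 143 without exposed sample 1 or PBS control 5, 201 without CuO NH3 40 + OVA sample 1, 242 without its sample 3 or OVA control 8, and 791 with slide and position terms.

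**Figure D5:**
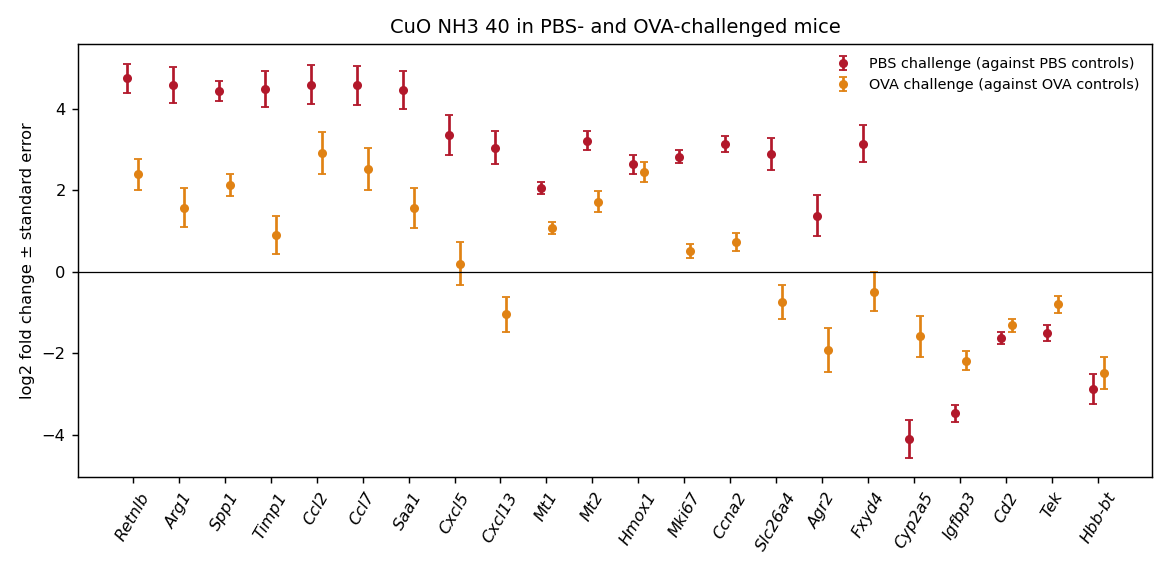
Effect of CuO NH3 40 as log2 fold change with its standard error for 22 genes, under PBS challenge against PBS controls and under OVA challenge against OVA controls. Mki67, Arg1, Timp1 and Cxcl13 have a lower effect under OVA, the fall of Cyp2a5 is smaller, and the 2 effects on Hmox1 lie side by side.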

How the data were processed

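Lung RNA of 89 samples was hybridised to 46 arrays on 6 slides, and 43 arrays held 2 of the samples. Groups and replicate numbers came from the labels. Agilent scanner files were deposited by the authors, with the median foreground intensity of each spot and channel before normalization. The authors' own normalized log2 table, deposited beside them, has a row for each probe, and its columns ordered the probes as the sample's own channel did in 89 of 89 cases. That table was used only as an alternative. Per the methods, the authors took log2, applied quantile normalization, adjusted for dye and array and fitted limma.

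The log2 of these intensities was quantile normalized over all samples without background subtraction. The 3671 control spots of 62976 and outlier spots were left out. The other spots were averaged to 56605 probes, and the 32994 with a RefSeq gene were averaged to 22911 genes, of which 22851 had no missing value. Probes without a gene (23611) were left out. R 4.3.3, limma 3.58.1 (lmFit, eBayes), data.table (version 1.17.8) and Python 3.11.15 were used. One model with all 26 groups was fitted with dye and array as terms (17 residual degrees of freedom), or dye, slide and array position between materials (50). P-values were adjusted by Benjamini-Hochberg over all genes tested, and a gene was called where the adjusted p was below 0.05 and the log2 fold change exceeded 0.58 in size. The median standard error was 0.138. The number of arrays limits the precision. The fits were also run on simulated data that held array effects but no slide, replicate or pool effects. That run therefore cannot decide between batch terms. Promoter windows came from RefSeq.

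Named genes were the 10 largest rises and falls with non-overlapping samples, at most 4 called members of each of 42 gene lists with members that define them, genes the study measured by PCR, and the 4 largest rises and falls of each other comparison. Not every gene under the rule is described, and some are not reported here. The groups, members and lists were chosen with earlier results of these data known. The settings varied were background correction (normexp, offset 50), the normalization (loess within and Aquantile between arrays, 86 samples), removal of dim probes, use of the authors' table, other batch terms, the replicate number as a block, the brightest probe per gene, the compared groups alone, controls of the same slides and each sample left out in turn.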

Additional observations from a re-analysis of the deposited data

Results flagged for a closer look

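In 10 of the named genes 1 of the 7 PBS controls lay apart from the rest, with a gap to its neighbour that was more than 0.568 of the whole control range, the 95% critical value for 7 samples. Chance gives such a gap in about 1 in 20 groups, and 122 genes were examined. The gap was 0.745 of the range for Myh6, 0.696 for Myl7 and 0.636 for Sln, in each case with PBS control 6 lowest, and these are among the cardiac muscle genes described above. PBS control 4 was highest for Mt2 (0.6) and Saa1 (0.667) and lowest for Hopx (0.591). PBS control 1 was lowest for Hmox1 (0.645) and highest for S100a8 (0.588), control 2 was highest for Atf3 (0.581) and control 3 for Colq (0.642). The calls of Mt2, Saa1, Hopx, Hmox1, Atf3 and Colq against controls held with each single sample left out, and those of S100a8, Myl7, Myh6 and Sln held except without exposed sample 1 or PBS control 5.

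For 32 named genes the effect of CuO NH3 40 differed by the interaction test between OVA-challenged and PBS-challenged mice, and the values that follow are the effect under OVA minus the effect under PBS on the log2 scale. Secreted and chemokine genes were Cxcl13 (-4.09), Ccl8 (-3.18), Cxcl5 (-3.16), Ccl12 (-2.21), Saa1 (-2.89), Il6 (-1.47) and Il33 (-1.63). Macrophage and repair genes were Timp1 (-3.58), Arg1 (-3.01), Retnlb (-2.36), Spp1 (-2.30), Cd14 (-1.70), Msr1 (-1.22) and Col3a1 (-1.29). Cell division genes were Rrm2 (-2.47), Ccna2 (-2.40), Mki67 (-2.32), Birc5 (-2.32), Aurka (-2.17) and Tk1 (-1.80). Metal, stress and clock genes were Mt2 (-1.49), Mt1 (-0.98), Slc39a14 (-1.07), Sdf2l1 (-1.70) and Nfil3 (-1.29). Epithelial transport and mucin folding genes were Fxyd4 (-3.63), Slc26a4 (-3.62) and Agr2 (-3.30). The 4 genes with a higher effect under OVA were Cyp2a5 (2.51), Cyp2a4 (2.17), Slc16a11 (1.32) and Igfbp3 (1.29).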

How the results depend on the processing

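Of the 122 named genes, 89 kept their direction and their side of the threshold against controls in all limma settings listed under processing other than the added replicate block with slide and position, 65 with it included, and 1 reversed. That gene was Ccl11, not called at 0.43, which stood at -0.14 with the array as a random block, at -1.08 with the replicate block and dye, and at -0.25 in the compared groups alone. The cause was not tested. The count of called genes against controls ranged from 2573 with loess normalization to 3934 with the replicate block and dye, and from 2370 to 3066 with single samples left out. It was 1335 with the replicate number as a block beside dye, slide and array position, a setting added after the data had been seen, in which 45 named genes lost their call.

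The difference from CuO NH3 10 (703 genes) gave 1126 with slide and position terms, 1146 with the replicate block and dye, 1116 with the added block, 1094 in the compared groups alone and 102 to 604 with single samples left out. The difference from CuO 40 (28) gave 15 with loess, 46 without dim probes, 713 with the array as a random block, 866 with the replicate block and dye, 496 in the compared groups alone, 0 with dye and array (947 at an unadjusted limma p below 0.05), 0 with the added block (1241) and 1 to 127 with single samples left out. The difference from CuO COOH 40 (13) gave 6 with loess, 1355 with the random block, 1546 with the replicate block and dye, 1454 in the compared groups alone, 5 with dye and array, 1 with the added block and 6 to 18 with single samples left out. The difference by challenge (364) gave 729 with the random block, 791 with slide and position terms, 739 with the replicate block and dye, 748 with the added block and 143 to 426 with single samples left out. The random block, the replicate block with dye and the compared groups alone had no slide term. In these settings the differences from CuO 40 and CuO COOH 40 cannot be told apart from those between slides. Of the 28 genes, 13 were also called with the random block and 13 with the replicate block and dye. For these counts the cause was not tested.

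Replicate numbers 1 to 3 recur in all groups, while 5 to 7 occur only in the PBS and OVA controls. The labels do not say that a number marks a shared animal, litter or day. Same-numbered samples correlated in their deviations from the group means at -0.04, 0.16 and -0.02 on normalized values, and at 0.18, 0.14 and 0.14 after dye, slide and array position were removed, where each exposed sample correlated best with its own number. Single-gene permutation tests with 3 against 7 samples cannot go below an exact two-sided p of 0.00833. Genes not well above background have only a bound.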

Other observations

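Cholesterol synthesis and uptake genes, which are under control of the sterol sensor SREBP2, were called higher in 5 of 20 measured after CuO NH3 40, with 0 lower and a median log2 fold change of 0.46 beside 0.00 over all genes, and in 3 without exposed sample 1 or 3. Of 31 subunits of the proteasome, the protease complex that removes damaged proteins, 3 were higher, the catalytic subunit Psmb5 (0.71) among them (9.68%, beside 7.35% of all genes) and 0 lower with a median of 0.32, and 7 were higher without exposed sample 1. Interferon-stimulated genes, the antiviral programme, had 0 higher and 2 lower of 18 with a median of -0.43, although Cxcl10 was among the higher genes (2.73).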
